A study of Mus musculus with 18 samples.

Results

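The CCN family of secreted matrix-associated proteins was followed in GFP+ cells sorted from neonatal mouse hearts. The members were taken by name, as the rows for Ccn1 to Ccn5, and these are 5 of the 55453 gene symbols in the table. Apical resection was compared with sham surgery at P2, when the mouse heart can regenerate, and at P10, when it no longer does. There were 18 libraries in 6 groups of 3. The P2 baseline and P10 baseline groups had neither surgery. The P2 sham and P2 resection groups were operated at P2 and collected 3 days later, at P5, and the P10 sham and P10 resection groups were operated at P10 and collected at P13. Every pup, controls included, was of the C57BL/6J strain, carried Tcf21-MerCreMer and Rosa-mTmG, and received tamoxifen at P1. Cre driven from Tcf21 thus marked with membrane GFP the cells that expressed Tcf21 at that time and their descendants, so fibroblasts outside this lineage were not sampled. Atria and valves were removed, the apical part of the ventricles was digested, for longer at the later ages, and GFP+ cells were sorted. The sex of the pups and how many went into a library are not in the labels, so the p-values measure the spread between these libraries, which may be in part technical.

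CCN proteins are built from modules that resemble insulin-like growth factor binding proteins, von Willebrand factor type C repeats and thrombospondin type 1 repeats, followed in most members by a cysteine knot at the C-terminal end. They are secreted, stay close to the cell surface and matrix, and act through integrins, LRP receptors and heparan sulfate proteoglycans to alter adhesion, migration and matrix production. Ccn1 (Cyr61) and Ccn2 (connective tissue growth factor) are classical targets of the transcriptional coactivators YAP and TAZ with TEAD factors. Ccn1 also behaves as an immediate early gene, and Ccn2 is induced by TGF-beta and marks fibrotic tissue. Ccn3 (Nov) is often expressed inversely to Ccn2, Ccn4 (Wisp1) was named for its induction by Wnt1, and Ccn5 (Wisp2) lacks the cysteine knot.

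All 5 genes lie on GRCm38 and were placed with the GENCODE M21 annotation. Ccn1 is on chromosome 3 from 145646976 to 145649981 on the minus strand, Ccn2 on chromosome 10 from 24595442 to 24598683, Ccn3 on chromosome 15 from 54745702 to 54754039, Ccn4 on chromosome 15 from 66891320 to 66923201 and Ccn5 on chromosome 2 from 163820861 to 163833146, the last 4 on the plus strand. Their longest coding sequences hold 379, 348, 354, 367 and 251 codons, and Ccn5, without the last module, is the shortest. The shared ancestry can be read in a stretch of 24 coding bases of the module that resembles insulin-like growth factor binding proteins, shown here 5′ to 3′ on the coding strand with cysteine codons in capitals. It lies in exon 2 of Ccn1 to Ccn4 and in exon 3 of Ccn5.
Ccn1 (chr3:145649331-145649354, minus strand): ggcTGCggcTGCTGTaaggtcTGC
Ccn2 (chr10:24595966-24595989, plus strand): ggcTGCggcTGCTGCcgcgtcTGC
Ccn3 (chr15:54746265-54746288, plus strand): ggcTGCtccTGCTGTccggtgTGC
Ccn4 (chr15:66906545-66906568, plus strand): ggcTGTgaaTGCTGTaagataTGT
Ccn5 (chr2:163825225-163825248, plus strand): ggcTGTggcTGCTGTcgagtgTGT
The 4 cysteine codons stand in the same places in all 5 genes. Between 14 bases (Ccn2 and Ccn4) and 20 bases (Ccn1 and Ccn2) of the 24 were identical. Over whole transcripts the longest run of bases shared by any pair of members was 28, between Ccn2 and Ccn3, and it was 18 or less for every other pair. An antisense gene, Gm15270, overlaps 23.2% of the exonic sequence of Ccn2. Strand was ignored in counting, so reads from the overlap cannot be assigned. Gm15270 itself had 0 to 53 counts per library where Ccn2 had 2477 to 15565.

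Of the 5 members, Ccn1 alone matched the RefSeq promoter table, and its promoter is shown for the motifs of the regulators listed with the results. The 120 bases before its RefSeq start (GRCm38.p6, chr3:145649986-145650105, minus strand) hold a TEAD motif and a TATA box, which are in capitals.
Ccn1 promoter: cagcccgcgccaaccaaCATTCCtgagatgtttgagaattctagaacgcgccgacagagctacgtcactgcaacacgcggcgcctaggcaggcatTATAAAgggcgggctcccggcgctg
Motifs were searched on both strands of the 300 bases from 250 before to 50 after the start. The TEAD motif GGAATG, read here on the other strand, began 103 bases before the start, and 14.7% of 32851 promoters of that length hold one. TATAAA began 25 bases before the start and is found in 13.6% of promoters. The Smad box CAGAC occurred once, just past the start, as it does at least once in 49.6% of promoters. The AP-1 motif TGANTCA and the CArG box, present in 7.81% and 1.63% of promoters, were not in this window.

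Libraries held 10462737 to 22980554 counts. Replicate 1 of each resection group has a title of another style than the other 16 libraries, and whether these were prepared apart from the rest is not in the labels. All 18 pairs of replicates were further apart than sampling noise alone would put them. In 3 groups replicate 1 stood apart from replicates 2 and 3. Its chi-square per gene against them was 295 and 171 in P2 sham, 159 and 161 in P10 baseline and 149 and 160 in P10 sham, against 76.5, 35.0 and 35.5 between replicates 2 and 3. In P10 baseline it also had 0.697% mitochondrial counts, against 0.253% and 0.198%. All 9 fibroblast markers had counts in every library, with group means of 250.8 to 331 CPM (read counts scaled by library size with TMM factors) for Tcf21 and 367 to 538 CPM for Pdgfra. Markers of other cells were low beside the sum of the fibroblast list, which holds matrix genes such as Col1a1 and Col3a1. Summed over each list, fibroblast markers reached 39396 to 100028 CPM, 12 cardiomyocyte markers 176 to 1571 CPM and 13 macrophage markers 7.76 to 1106 CPM. Mural markers summed to 560 to 2041 CPM and endothelial markers to 175 to 481 CPM. At their highest these sums of other cells were above the group means of Tcf21 alone, so they do not measure how pure the sort was. The 9 epicardial markers summed to 798 to 2096 CPM, nearly all of it Aldh1a2, while Wt1, Upk3b and Msln had group means of at most 6.45 CPM. In bulk samples fewer cells of a type and less RNA per cell cannot be told apart.

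Ccn1 was the most abundant member. Per length, in CPM per kb of exon, it was the first of the 5 in all 18 libraries and ranked between 15th and 51st of 16067 genes in its group means. Its mean level was 672 ± 86.4 CPM per kb at P2 baseline (SD, n = 3) and 1149 ± 507 at P10 baseline. Ccn3 came next in 14 libraries and Ccn2 in the other 4, which are the 3 libraries of the P10 resection group and replicate 2 of the P2 resection group. Per exon base not shared with Gm15270, a measure added after the values were seen, Ccn2 was also above Ccn3 in replicate 3 of P2 resection (235 against 227 CPM per kb), so that Ccn3 came next in 13 libraries. At P10 resection the mean level was 261 ± 39.4 CPM per kb for Ccn2 and 141 ± 34.7 for Ccn3, whereas at P10 sham it was 98.0 ± 10.9 for Ccn2 and 177 ± 3.86 for Ccn3, and the libraries of the 2 genes did not overlap in either group. Ccn4 and Ccn5 stood far below, and their order changed with age. Ccn4 was above Ccn5 in 9 libraries, 8 of the 9 from the P2 groups and replicate 1 of P10 baseline. Ccn5 was above Ccn4 in the other 9, with 30.5 ± 20.5 against 4.67 ± 0.919 CPM per kb at P10 resection. Of the summed level of the 5 genes per length, Ccn1 made up 58.1% to 71.9% in the group means, Ccn3 10.5% to 30.1% and Ccn2 6.95% to 19.3%.

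**Figure D1:**
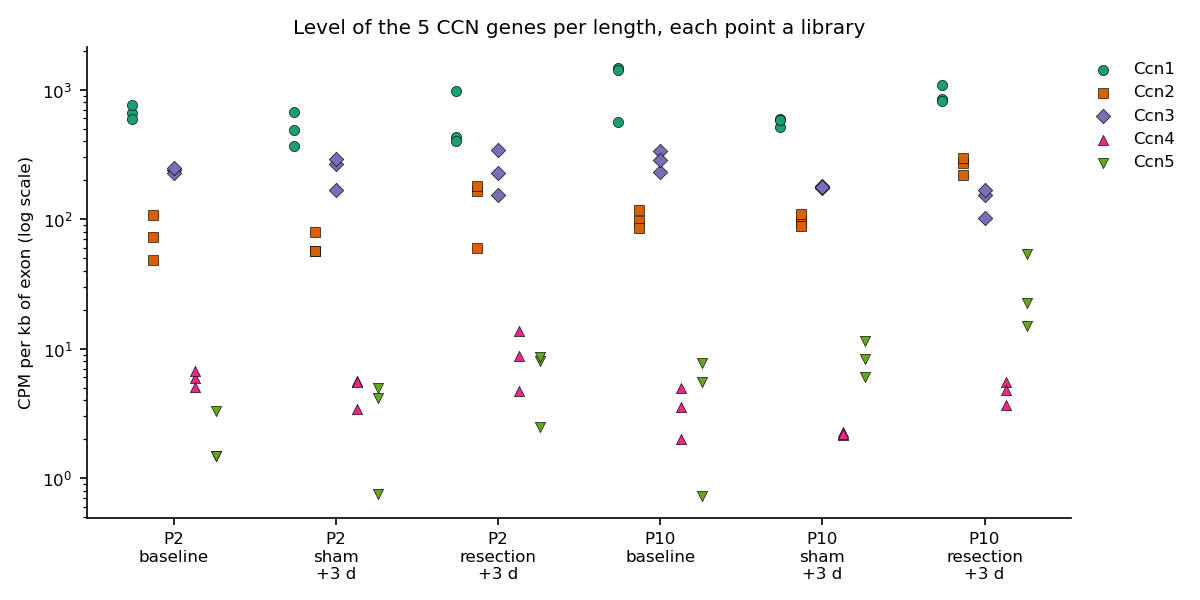
Level of the 5 CCN genes in CPM per kb of exon (log axis), each point a library, in the 6 groups of 3. Ccn1 lies at the top in every library, Ccn2 lies above Ccn3 in all 3 P10 resection libraries, and Ccn4 and Ccn5 lie at the bottom. Ccn4 lies above Ccn5 in the P2 groups and below it in the P10 groups, except in replicate 2 of P2 sham and replicate 1 of P10 baseline.

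The question for resection was whether CCN transcripts in Tcf21-lineage cells differ from sham 3 days after the injury. Ccn2 differed most in size relative to its error. After P10 resection Ccn2 was at 774, 622 and 842 CPM in replicates 1 to 3, against 273, 315 and 253 CPM after P10 sham. Every resected library was above every sham library, and the P10 baseline libraries, at 275, 338 and 244 CPM, lay in the range of sham or next to it. The log2 fold change was 1.41 (SE 0.34, unadjusted p = 0.000699, adjusted p = 0.626, edgeR), which placed Ccn2 15th of 16170 genes by p. It ranged from 1.31 to 1.53 with single libraries left out, replicate 1 of P10 sham among them.

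After P2 resection Ccn2 was at 173, 474 and 516 CPM, against 227, 164 and 164 CPM after P2 sham and 208, 138 and 307 CPM at P2 baseline. Replicates 2 and 3 were above all sham libraries, and replicate 1, the library with the differently styled title, was within them. This was a log2 fold change of 1.07 (SE 0.34, unadjusted p = 0.00584, adjusted p = 1, edgeR). With both ages averaged it was 1.24 (SE 0.24, 95% interval 0.73 to 1.75, unadjusted p = 7.83e-05, adjusted p = 0.211, edgeR), sixth of 16170 genes by p. Higher in 5 of 6 resected libraries than in all sham libraries of its age, Ccn2 was called over both ages by DESeq2 (adjusted p = 0.000797) and by voom (adjusted p = 0.0445), and by edgeR without that replicate 1 (log2 fold change 1.42, adjusted p = 0.0228, with 0.00586% of genes called). That library was the only resected one not above sham, and the other 17 fits that left out a library did not call Ccn2 (adjusted p up to 0.663). DESeq2 also called it at P10 alone (adjusted p = 0.0399).

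**Figure D2:**
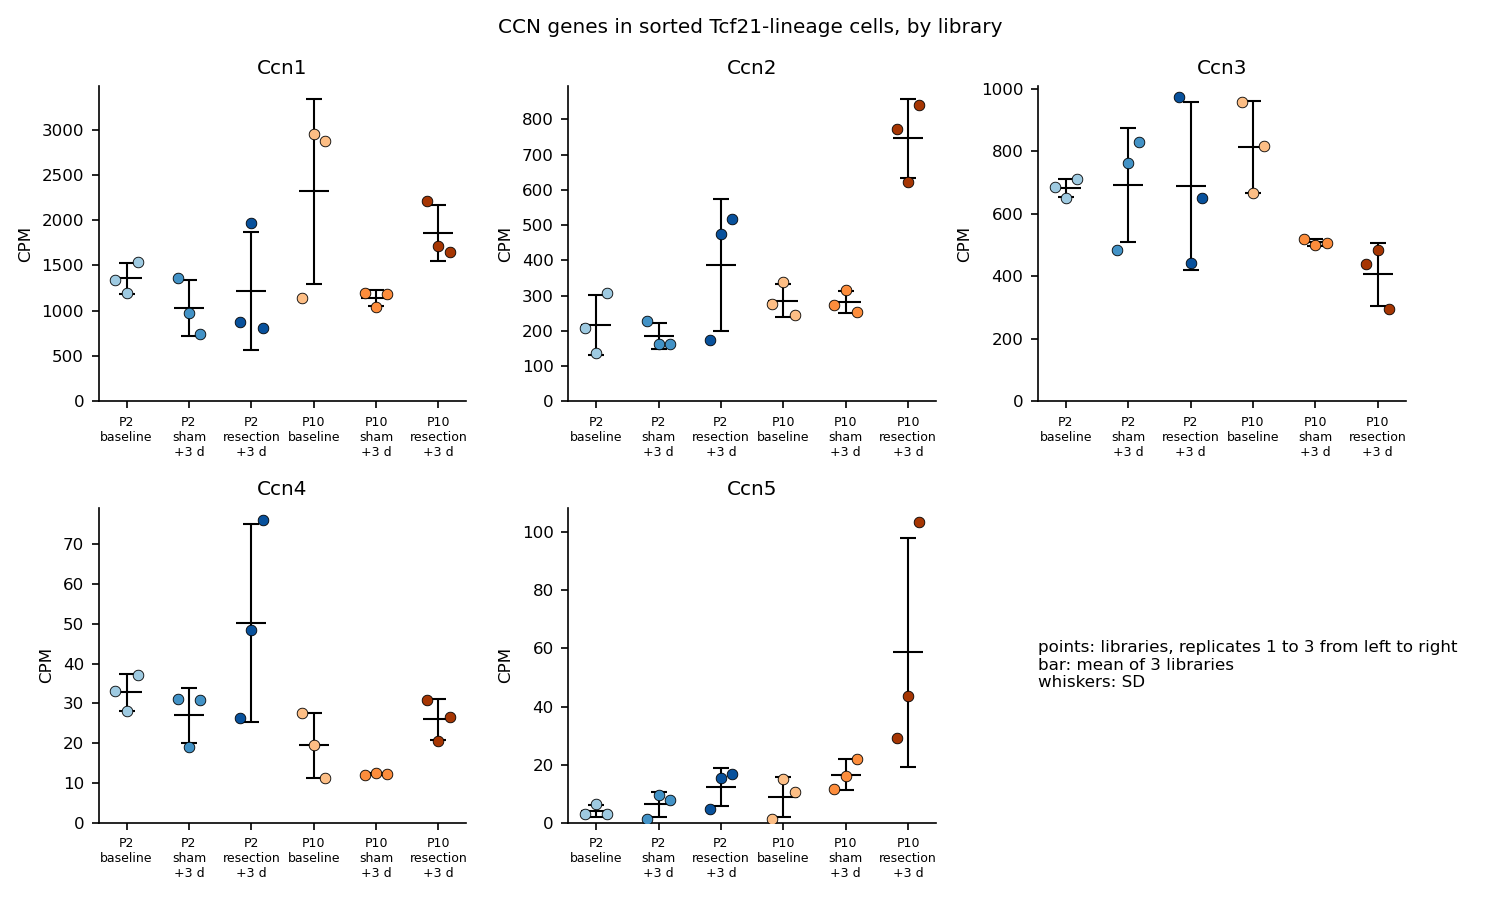
CPM of each CCN gene (linear axis from 0) in every library of the 6 groups, with points for replicates 1 to 3 from left to right, a bar for the mean and whiskers for the SD. Ccn2 in the P10 resection group, at 622 to 842 CPM, lies above all other libraries, and replicate 1 of P2 resection lies with the sham libraries for Ccn2, Ccn4 and Ccn5.

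Ccn1, the early-response member, gave a less even picture. It was at 2210, 1710 and 1652 CPM after P10 resection and at 1199, 1036 and 1183 CPM after P10 sham. The groups did not overlap, but the P10 baseline libraries, at 1137, 2948 and 2873 CPM, spanned both. Against sham the log2 fold change was 0.71 (SE 0.35, adjusted p = 1, edgeR). After P2 resection Ccn1 was at 877, 1975 and 806 CPM, against 1366, 979 and 748 CPM after P2 sham, and only replicate 2 stood apart. At P2 the log2 fold change was 0.24 (SE 0.35, adjusted p = 1, edgeR), and without that replicate it was -0.29.

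Ccn3 was the member without a higher level after resection. After P10 resection it was at 440, 484 and 294 CPM, below 520, 498 and 506 CPM after P10 sham in every library. The difference was small, with a log2 fold change of -0.33 (SE 0.27, adjusted p = 1, edgeR). After P2 resection it was at 974, 442 and 650 CPM and after P2 sham at 484, 762 and 829 CPM, so the groups overlapped throughout and the log2 fold change was -0.01 (SE 0.27, adjusted p = 1, edgeR).

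Ccn4, the Wnt1-induced member, was at 30.8, 20.6 and 26.6 CPM after P10 resection and at 12.0, 12.6 and 12.1 CPM after P10 sham. Sham libraries lay close together and all resected libraries lay above them. The log2 fold change was 1.08 (SE 0.38, unadjusted p = 0.0102, adjusted p = 1, edgeR). After P2 resection Ccn4 was at 26.3, 48.5 and 76.0 CPM and after P2 sham at 31.2, 18.95 and 30.8 CPM, where replicate 1 of the resected group again fell among the sham libraries. It differed by 0.90 on the log2 scale (SE 0.37) at P2, by 0.48 there without replicate 3 of P2 resection, and by 0.99 (SE 0.26, unadjusted p = 0.00158, adjusted p = 0.521, edgeR) over both ages. DESeq2 called the latter (adjusted p = 0.0495).

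Ccn5, the member without the cysteine knot, was the most variable. After P10 resection it was at 29.0, 43.5 and 103 CPM and after P10 sham at 11.6, 15.9 and 22.1 CPM. The groups did not overlap, and replicate 3 of the resected group was by far the highest of the 18 libraries. The log2 fold change was 1.83 (SE 0.76, unadjusted p = 0.0281, adjusted p = 1, edgeR), and without that replicate it was 1.14. That library also had the highest summed epicardial markers, at 2096 CPM against 1105 and 1339 CPM in the other two, and the highest valve interstitial markers, at 102 CPM against 47.4 and 41.1 CPM, and 5 of the 9 epicardial markers were at 0 in it. How far these markers and Ccn5 are tied was not tested. After P2 resection Ccn5 was at 4.81, 15.5 and 16.7 CPM, against 1.44, 9.64 and 7.96 CPM after P2 sham, with overlap and a log2 fold change of 0.96 (SE 0.75, adjusted p = 1, edgeR).

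By count, edgeR called 0 of the 5 members at P2, at P10 and over both ages, and it called 0% of all 16170 genes in each of these comparisons. At an unadjusted p under 0.05 there were 2 members at P2 (Ccn2 and Ccn4), and 3 at P10 and over both ages (Ccn2, Ccn4 and Ccn5), where 4.51%, 4.09% and 5.78% of all genes stood at that level. DESeq2 called 0, 1 and 2 members and voom 0, 0 and 1, and where members were called DESeq2 called 0.206% of genes at P10 and 0.553% over both ages and voom 0.315%. On all genes with a count edgeR called Ccn2 at P10 (adjusted p = 0.00173, with 0.263% of genes called), and over both ages Ccn2 (adjusted p = 3.77e-06) and Ccn5 (log2 fold change 1.40, adjusted p = 0.0231), with 0.332% of genes called. In the P10 comparison all 5 members had groups that did not overlap, 4 of them higher after resection and Ccn3 lower, beside 8.68% of all genes (5.63% higher and 3.04% lower). In the P2 comparison none of the 5 did, beside 8.47% of all genes. Replicate 1 of P2 resection, the low library of its group for Ccn2, Ccn4 and Ccn5 and the one titled in another style, had the most macrophage marker counts of the P2 libraries (458 CPM summed, against 205 and 73.9 CPM in replicates 2 and 3) and the fewest cardiomyocyte marker counts (341 against 915 and 1008 CPM). Over both ages 13 of 13 macrophage markers were higher than sham after resection, with a median log2 fold change of 0.88, as were 9 of 9 epicardial (1.03), 7 of 7 valve interstitial (1.30), 8 of 9 endothelial (0.91), 8 of 9 mural (0.32) and 4 of 12 cardiomyocyte markers (-0.25). edgeR called 0 of them, with 3, 1, 1, 1, 0 and 0 at an unadjusted p under 0.05, DESeq2 called Flt1 alone and voom none. At single ages the signs were less even. At P2 the epicardial Upk1b, Krt8, Upk3b, Krt18 and Krt19 were lower after resection (log2 fold change -2.29 to -0.39), the other epicardial markers higher. Of the valve markers Chad was lower at P2 (-1.01), and Tnmd and Cilp2 were lower at P10 (-5.32 and -0.56), the others higher. Up to 8 of the 9 epicardial and 10 of the 13 macrophage markers were at 0 in a sham library. The part of these cells in the CCN differences was not tested. In the P10 groups the macrophage markers summed to between 77.3 and 1106 CPM after resection and between 103 and 373 CPM after sham.

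**Figure D3:**
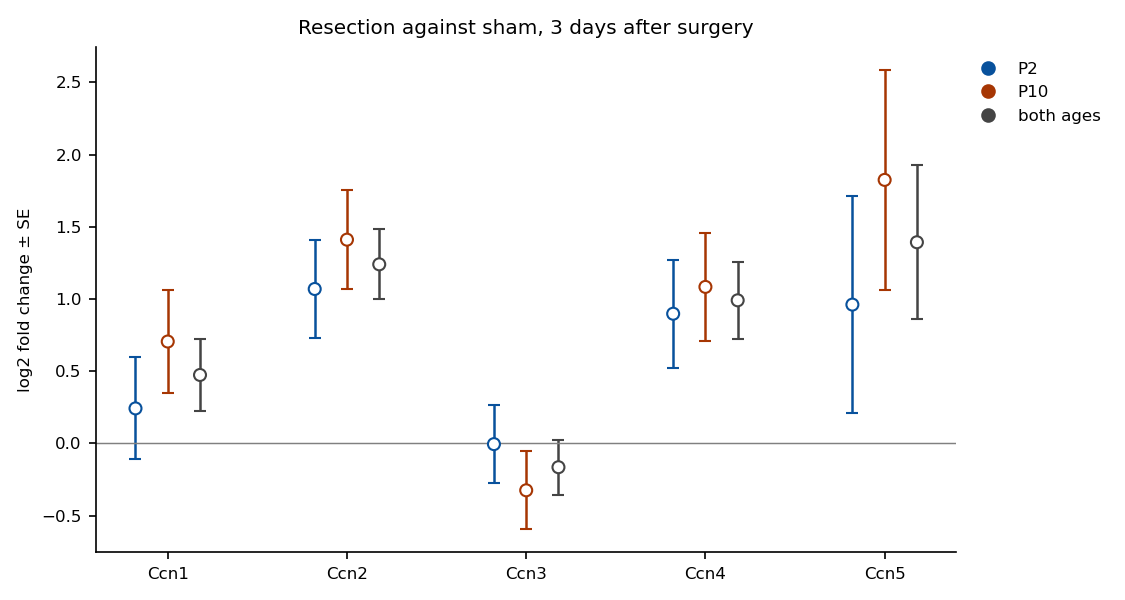
Log2 fold change of resection against sham, with its SE, for each CCN gene at P2, at P10 and averaged over both ages, from 3 libraries a group. All points are open because no adjusted p from edgeR was under 0.05. Ccn2 and Ccn4 lie between 0.90 and 1.41 at each age and Ccn3 lies at or below 0.

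Whether resection acts differently at the regenerative and the non-regenerative age was tested as the difference of the 2 resection effects. edgeR called 0 of 5 members (0% of all genes), 0 had an unadjusted p under 0.05 (2.88% of all genes did), and DESeq2 and voom called none. For Ccn2 the effect at P10 minus that at P2 was 0.34 on the log2 scale, with a 95% interval from -0.66 to 1.34. For Ccn4 it was 0.19 (-0.92 to 1.29), for Ccn1 0.46 (-0.59 to 1.51), for Ccn3 -0.32 (-1.13 to 0.49) and for Ccn5 0.86 (-1.35 to 3.08), each with an adjusted p that rounds to 1 by edgeR. For each of the 5 members the interval reaches beyond 1 log2 unit in at least 1 direction, so they do not show that the effects were alike. Without replicate 1 of P2 resection the difference for Ccn2 was -0.015.

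Between the ages, with the 9 libraries of the 3 P10 groups (the P10 window) set against the 9 of the 3 P2 groups (the P2 window), edgeR called 3 of the 5 members, beside 13.5% of all genes (7.11% higher and 6.39% lower at P10). Ccn2 and Ccn5 rose and Ccn4 fell, while Ccn1 and Ccn3 did not pass. DESeq2 called the same 3 members (19.4% of genes), and voom called Ccn1 in addition (28.3%), as did edgeR on all genes with a count (9.54%). At an unadjusted p under 0.05 edgeR had 4 members, where 28.3% of genes stood. The groups of 9 overlapped for every member, as they did for all but 2.51% of genes. At each stage taken alone 0 of 5 members were called by edgeR, beside 4.38% of genes at baseline, 3.18% after sham and 0.86% after resection. At an unadjusted p under 0.05 there were 1, 1 and 4 members, beside 18.7%, 16.3% and 8.77% of genes. DESeq2 called 0, 1 (Ccn4, with 8.07% of genes called) and 0 members, and voom called 1 (Ccn1, with 22.5%), 0 and 2 (Ccn2 and Ccn5, with 5.62%). Digestion time also differed between the ages, and its part in these differences cannot be told apart from age.

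Ccn4 had the firmest difference with age. Its lowest, median and highest values were 18.95, 31.2 and 76.0 CPM in the P2 window and 11.1, 19.6 and 30.8 CPM in the P10 window. The overlap came from the 3 resected and 2 of the baseline libraries of P10. It fell by 0.95 on the log2 scale (SE 0.22, adjusted p = 0.00634, edgeR), and by sign it was lower at P10 at all 3 stages, with log2 fold changes of -0.75 at baseline, -1.14 after sham and -0.95 after resection. After sham all P10 libraries, at 12.0 to 12.6 CPM, were below all P2 libraries, and at baseline all 3, at 11.1 to 27.5 CPM, were below 28.002 to 37.2 CPM at P2. Such separation was seen in 16.7% and 22.4% of all genes. Ccn4 remained called whichever single library was left out.

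Ccn5 rose with age by the largest amount and with the largest error. It spanned 1.44 to 16.7 CPM in the P2 window, with a median of 6.33, and 1.40 to 103 CPM in the P10 window, with a median of 15.9. At baseline Ccn5 was at 2.85, 6.33 and 2.86 CPM at P2 and at 1.40, 14.98 and 10.6 CPM at P10, with replicate 1 of P10 baseline below all libraries of P2. The log2 fold change between windows was 1.595 (SE 0.44, adjusted p = 0.0220, edgeR). It lost the call without replicate 3 of P10 resection (1.37, adjusted p = 0.0618) or without replicate 2 of P10 baseline (1.39, adjusted p = 0.0574). Between the resected groups it was 2.25 (SE 0.77, adjusted p = 0.271, edgeR), without replicate 3 of P10 resection it was 1.57, and none of the 18 fits that left out a library called it (adjusted p from 0.128 to 1). Same-numbered libraries of these groups deviated together weakly (correlations of 0.121, 0.189 and 0.130), and the labels do not say that the numbers pair them. With the replicate number as a block the adjusted p was 0.0477 (edgeR), at a log2 fold change of 2.33, with 1.15% of genes called. On all genes with a count, without that block, the adjusted p was 0.000971 (edgeR), with 1.82% called. The P10 libraries, at 29.0 to 103 CPM, were all above the P2 libraries, at 4.81 to 16.7 CPM, as were those of Ccn2, a separation that 23.3% of genes had.

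Ccn2 rose with age by 0.65 on the log2 scale (SE 0.20, adjusted p = 0.0350, edgeR). Its lowest, median and highest values were 138, 208 and 516 CPM in the P2 window and 244, 315 and 842 CPM in the P10 window. The difference was 0.39 at baseline (SE 0.34), 0.60 after sham (SE 0.34) and 0.94 after resection (SE 0.34), and after sham the 3 P10 libraries, at 253 to 315 CPM, were above the 3 P2 libraries, at 164 to 227 CPM. Leaving out single libraries ended the call in 8 of 18 cases, with adjusted p-values of 0.0163 to 0.0765 over the 18. The 8 were replicates 1 and 2 of P2 baseline, 2 and 3 of P2 sham, 2 of P10 baseline, 2 of P10 sham, and 1 and 3 of P10 resection.

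Ccn1 was higher at P10 by 0.51 on the log2 scale (SE 0.20, adjusted p = 0.111, edgeR), and voom called it (0.71, adjusted p = 0.00512), as did edgeR on all genes with a count (0.54, adjusted p = 0.0116), without replicate 2 of P2 resection (0.69, adjusted p = 0.0218) or replicate 1 of P10 baseline (0.62, adjusted p = 0.0224). Its baseline values were 1337, 1194 and 1541 CPM at P2 and 1137, 2948 and 2873 CPM at P10, so 2 of the 3 P10 libraries were far above P2 and replicate 1 was below. Without replicate 1 of P10 baseline the baseline difference was called (1.10, adjusted p = 0.0481, edgeR, with 7.04% of genes called), and with it the log2 fold change was 0.77 (SE 0.35, adjusted p = 0.251). The difference was 0.14 after sham (SE 0.35) and 0.61 after resection (SE 0.35). Ccn3 was at 686, 651 and 710 CPM at P2 baseline and at 957, 666 and 817 CPM at P10 baseline. Over the windows its log2 fold change was -0.32 (SE 0.16, adjusted p = 0.194, edgeR), with a difference of 0.25 at baseline, -0.44 after sham and -0.76 after resection.

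**Figure D4:**
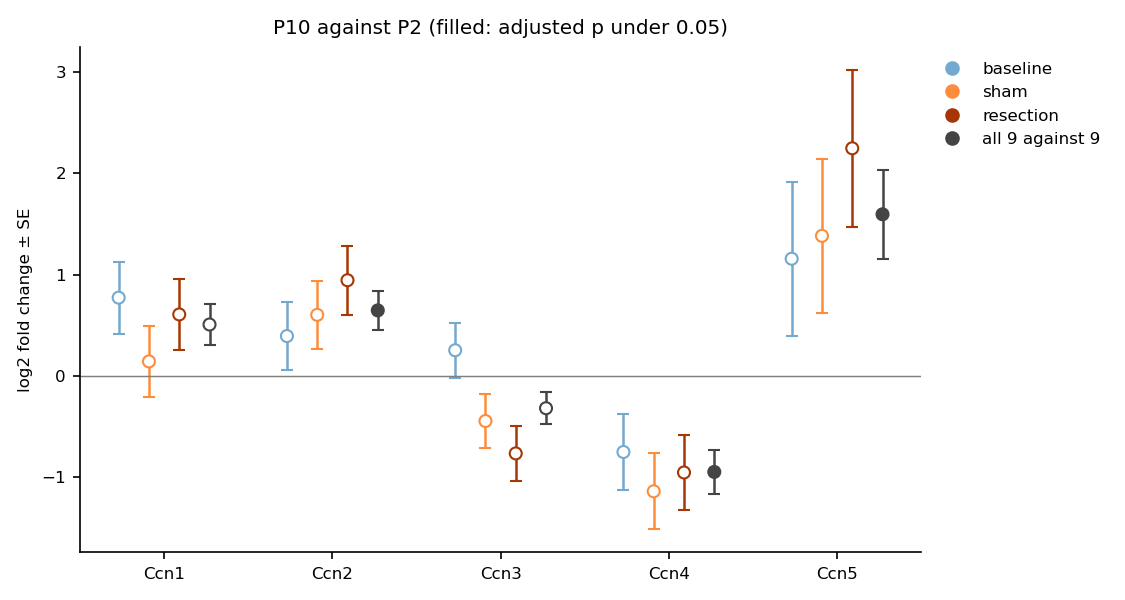
Log2 fold change of P10 against P2, with its SE, for each CCN gene at baseline, after sham, after resection and over all 9 against 9 libraries. Filled points have an adjusted p under 0.05 by edgeR, which holds for Ccn2, Ccn4 and Ccn5 in the comparison of 9 against 9 only.

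Sham was compared with baseline at each age, which joins the operation with 3 days of growth. edgeR called 0 of 5 members at P2 (0% of all genes) and at P10 (0.00618%, 1 gene), with 0 and 2 members at an unadjusted p under 0.05 (7.6% and 7.4% of genes) and 0 called by DESeq2 or voom. At P10 the pair was Ccn1, at 1036 to 1199 CPM after sham against 1137 to 2948 CPM at baseline (log2 fold change -1.03, SE 0.36, adjusted p = 0.585, edgeR), and Ccn3, at 498 to 520 CPM after sham, below all 3 baseline libraries (-0.68, SE 0.27, adjusted p = 0.648, edgeR). Groups without overlap were found for 10% of genes there. On all genes with a count edgeR called Ccn1 (-1.04, adjusted p = 0.0419, with 0.522% of genes called). At P2 the log2 fold changes of the 5 members were -0.40 to 0.66.

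The receptors and regulators of the family were described by lists. Over all genes tested, 52.9% were higher after resection over both ages and 5.78% stood at an unadjusted p under 0.05, and between the windows 7.11% were called higher and 6.39% lower at P10. After resection, over both ages, edgeR called 0 genes of any of the 7 pathway lists, and the counts at an unadjusted p under 0.05 and the calls of the other tools are given with each. Of 14 TGF-beta response genes, the class to which Ccn2 belongs, 13 were higher over both ages, with a median log2 fold change of 0.48 against 0.03 for all genes and 7 at an unadjusted p under 0.05. DESeq2 called Pmepa1 and voom called Fn1. The most abundant of them were Col1a1, the main fibrillar collagen, with a log2 fold change of 0.69 (SE 0.25), and Postn, a matricellular protein of activated fibroblasts, with 0.12 (SE 0.30). All 10 CCN receptor genes were higher, with a median of 0.40 (2 at an unadjusted p under 0.05, 0 called by DESeq2 and Itga5 called by voom). The most abundant receptors, the integrin subunit Itgb1 and the endocytic receptor Lrp1, had log2 fold changes of 0.11 (SE 0.19) and 0.29 (SE 0.37).

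Of 19 other YAP-TEAD target genes 14 were higher over both ages, with a median log2 fold change of 0.20, none had an unadjusted p under 0.05, and neither DESeq2 nor voom called any. Axl, a receptor tyrosine kinase, had -0.20 (SE 0.16) and the RNA-binding protein gene Rbms3 0.17 (SE 0.27). The 16 YAP and TEAD factors and regulators had a median of 0.13 with 1 at an unadjusted p under 0.05, and Wwtr1, which encodes TAZ, had 0.28 (SE 0.22) and Mob1a, an adaptor of the LATS kinases, -0.12 (SE 0.20). Of 14 SRF-MRTF target genes 12 were higher, with a median of 0.22 and 2 at an unadjusted p under 0.05, and of 8 Wnt-beta-catenin target genes tested 4 were higher, with a median of 0.04 and none at that level. DESeq2 and voom called none in these lists. Among the SRF-MRTF targets the cytoskeletal genes Actb and Flna had 0.30 (SE 0.19) and 0.31 (SE 0.21), and among the Wnt-beta-catenin targets Apcdd1 and Bmp4 had 0.12 (SE 0.20) and -0.22 (SE 0.19). Immediate early genes were higher in 18 of 19, with a median of 0.33 and none at an unadjusted p under 0.05 or called by DESeq2 or voom. Egr1 had 0.33 (SE 0.26) and Fos 0.39 (SE 0.31).

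With age the immediate early genes gave the most calls. In the window comparison 10 of 19 rose and 0 fell, beside 7.11% and 6.39% of all genes, with a median log2 fold change of 0.69 against -0.06 for all genes. Jun rose by 1.09 (SE 0.15, adjusted p = 9.26e-05, edgeR), from 673 ± 101 to 1431 ± 325 CPM (SD, n = 9), and Junb by 1.37, both subunits of AP-1. Dusp1, a phosphatase of MAP kinases, rose by 1.25 and the transcription factor gene Klf2 by 0.58. Many genes of this list are also raised by tissue dissociation, and their part in the level of Ccn1 was not tested. In P10 baseline replicate 1, where Ccn1 was 1137 CPM, the 20 genes of the list summed to 14526.5 CPM, against 18301 and 17968 CPM in replicates 2 and 3, where Ccn1 was 2948 and 2873 CPM. In the P10 sham group the sum was 16947, 9022 and 9820 CPM in replicates 1 to 3, where Ccn1 was 1199, 1036 and 1183 CPM. In the P2 baseline group the sum was 7824 to 8679 CPM.

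Other regulators and targets gave fewer calls. Of 16 YAP and TEAD factors and regulators 0 rose and 2 fell, Tead2 by 1.11 (SE 0.23, adjusted p = 0.00277, edgeR) and Tead1 by 1.14 on the log2 scale. Of 19 target genes Axl rose by 1.32 and the tissue factor gene F3 by 1.67, and the stress-responsive Ankrd1 fell by 2.51. The paper describes Ankrd1 as a marker of immature cardiomyocytes, and which cells it came from here was not tested. Of 14 TGF-beta response genes 4 were called, with Tgfbi (1.53) and Pmepa1 (0.74) higher, the inhibitory Smad6 (-1.53) and Postn (-1.24) lower, and a median of -0.05. Of the SRF-MRTF target genes Vcl and Cnn2 fell, by 0.63 and 0.58, and none of 14 rose. Among 10 CCN receptor genes Itgb5 rose by 0.77 and Itga6, a laminin-binding integrin subunit, fell by 1.77, and of 8 Wnt-beta-catenin target genes tested Bmp4 rose by 0.81. In the same comparison 7 of 12 cardiomyocyte markers fell, beside 6.39% of all genes, 0 rose, and their median log2 fold change was -1.04. They summed to 341 to 1571 CPM in the P2 libraries and 176 to 865 CPM in the P10 libraries. Of the 9 mural markers 3 rose and 1 fell (median 0.23), with sums of 559.6 to 1436 CPM at P2 and 917 to 2041 CPM at P10. Of the fibroblast markers 4 of 9 rose and 0 fell (0.45), of the macrophage markers 2 of 13 rose and 0 fell (0.98), of the valve interstitial markers 1 of 7 rose and 0 fell (1.71), and of the 9 endothelial and 9 epicardial markers edgeR called 0 (medians -0.01 and -1.95, with 1 and 2 at an unadjusted p under 0.05), while DESeq2 called Tek and Upk1b and voom Tek. The part of these cells in the CCN differences was not tested.

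**Figure D5:**
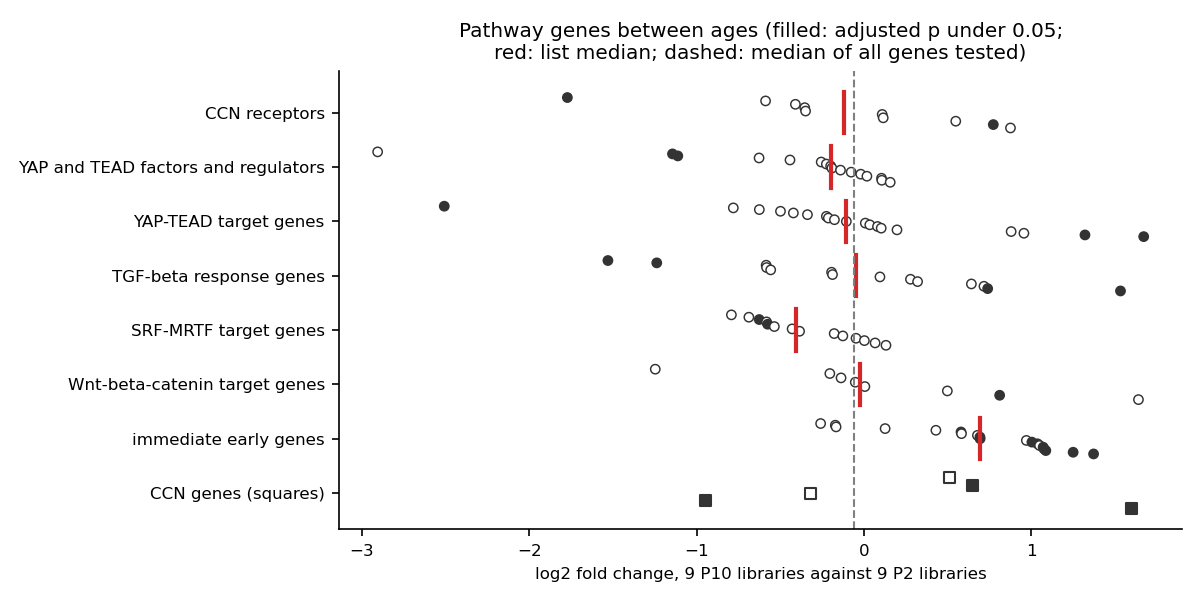
Log2 fold change of each gene tested in the 7 pathway lists, and of the 5 CCN genes (squares), for 9 P10 libraries against 9 P2 libraries. Filled symbols have an adjusted p under 0.05 by edgeR, red bars are list medians and the dashed line is the median of all genes, -0.06; the median of the immediate early genes lies at 0.69.

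The genes most like each member were found by Pearson correlation of log2 CPM over the 18 libraries, which share their groups, so these values describe and are not tested. Ccn1 was most like Ier2 (r = 0.82, Spearman's rho 0.74), Egr1 (0.81, rho 0.82) and the amino acid transporter gene Slc38a7 (0.76). Ier2 and Egr1 are immediate early genes. Ccn2 was most like the matrix proteoglycan gene Bgn (0.88), Olr1 (0.85), which at a mean of 0.321 CPM is near the limit of detection, and the collagen gene Col8a1 (0.84). Ccn4 was most like Palld (0.91), an actin-binding protein gene, the matricellular Tnc (0.89) and Lbr (0.87). Ccn3 was most like Gm48667 (0.85), Tmem44 (0.79) and Mex3b (0.77), and Ccn5 was most like Fads3 (0.89), Dok1 (0.89) and Gm6977 (0.89).

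Taken as deviations from the group means, the nearest genes were different ones. They were Dffa, Eepd1 and the immediate early gene Dusp1 for Ccn1 (0.84, 0.83 and 0.81), Stard13, Hsp90ab1 and Rgs4 for Ccn2 (0.83, 0.81 and 0.80), and Itpkb, Egr3 and Hspa9 for Ccn4 (0.89, 0.86 and 0.85). For Ccn3 they were 1700025G04Rik, E130311K13Rik and Dennd6a (0.84, 0.82 and 0.81), and for Ccn5 Pes1, Med22 and Usp5 (0.93, 0.91 and 0.90). Within the family, Ccn3 and Ccn2 ran opposite to each other, with r = -0.70 over the 18 libraries and -0.63 for the deviations. Ccn2 and Ccn4 went together within groups (0.71) and little over all libraries (0.23), and Ccn2 and Ccn5 went together over all libraries (0.67) and little within groups (0.11). Ccn1 and Ccn3 had -0.31 over all libraries and -0.62 within groups, and Ccn3 and Ccn5 had -0.66 over all libraries and -0.28 within groups.

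Ccn6 (Wisp3), the remaining gene of the family, had 0 to 19 counts per library and was at 0 in 10 of 18. It was not tested. Among the P10 libraries it had 1 count in replicates 1 and 3 of the resected group and 0 in the other 7. At these depths 0 counts allow up to 3 counts, or 0.131 to 0.287 CPM, and this covers counting error only. Tube1 on the opposite strand covers 33.97% of its exon bases.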

How the data were processed

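GFP+ cells of 18 samples were profiled by bulk RNA sequencing (SMARTer amplification, Nextera XT, single-end). The authors trimmed reads with fastp 0.20.0, aligned them with STAR 2.7.0f to GRCm38.p6 and counted exon reads per gene symbol with featureCounts (Subread 1.6.4), without strand, on GENCODE M22. The deposited values are raw counts per gene, and multi-mapping reads and those shared by overlapping genes are not counted at the default settings. Per-length levels used the exons of GENCODE M21. In R 4.3.3, edgeR 4.0.16 fitted 1 quasi-likelihood model to all 18 libraries after TMM scaling and filterByExpr (minimum count 10, minimum total 15), which kept 16170 of 28906 genes with a count. Comparisons were contrasts of group means, with Benjamini-Hochberg adjustment over all genes tested. An adjusted p under 0.05 was called. The study's tool, DESeq2 (1.42.0 here), limma 3.58.1 voom with sample quality weights and other settings were run as alternatives, and the code was tested on simulated data. The log2 CPM of the correlations used a prior count of 2.

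The family, the gene lists and the tests were chosen with earlier results of these data known. The text names the 5 members always, the called genes of a list (at most 4, by adjusted p) or, where none was called, its 2 most abundant genes, and the 3 genes most correlated with each member. Genes called only by DESeq2 or voom, and markers given as values, were named after their values were seen. Replicate numbers in the labels were checked by correlating the deviations of same-numbered libraries from their group means. All 3 correlations were over 0.1 between P10 and P2 resection (0.121, 0.189 and 0.130) and between P10 sham and P10 baseline (0.328, 0.107 and 0.126), and not in the other comparisons. Libraries held 10462737 to 22980554 counts, and every member had at least 23 counts in each. Promoters came from RefSeq (GRCm38.p6), where 1 of the 5 members matched.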

Additional observations from a re-analysis of the deposited data

How the results depend on the processing

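The call rate of the family was 0 of 5 in 9 of the 10 comparisons and 3 of 5 between the windows, and other settings moved some of these counts. With all 28906 genes that had a count, edgeR called 1 member for P10 resection against sham (Ccn2, with 0.263% of genes called) and 2 over both ages (Ccn2 and Ccn5, 0.332%). It called 1 for P10 against P2 resection (Ccn5, 1.82%) and 1 for P10 sham against baseline (Ccn1, 0.522%). Between the windows it called 4 (9.54%), as voom did (28.3%), with Ccn1 in addition. DESeq2 called 1 for P10 resection against sham (Ccn2, 0.206%), 2 over both ages (Ccn2 and Ccn4, 0.553%) and 1 for P10 against P2 sham (Ccn4, 8.07%). By voom there were 1 over both ages (Ccn2, 0.315%), 1 at baseline (Ccn1, 22.5%) and 2 between the resected groups (5.62%). The cause was not tested. The replicate block called 1 member between the resected groups (Ccn5) and changed no other call for the family, and it gave 186 genes against 139 in all there. Leaving out single libraries gave 0 to 1 members over both ages, 0 to 1 at baseline and 1 to 4 between the windows, with 0% to 0.0232%, 1.53% to 7.04% and 9.73% to 17.4% of all genes called, and in the last only Ccn4 was left without replicate 2 of P10 baseline or replicate 3 of P10 resection. DESeq2's size factors in edgeR and fits of only the groups compared moved none of these counts, and the window comparison could not be fitted in the latter way as another model, since it uses all groups.

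Of the members' log2 fold changes, 15 with a library left out and 2 under other settings had another sign, and none of these was called. Ccn3 had 0.00386 for P2 resection against sham with all genes and 0.0227 for the difference of resection effects by voom. Over single libraries left out, values crossed 0 for P2 resection against sham (Ccn1 from -0.29 to 0.50 and Ccn3 from -0.34 to 0.23), for the difference of resection effects (Ccn2 from -0.015 to 0.60, Ccn3 from -0.56 to 0.011 and Ccn4 from -0.13 to 0.61), for P10 against P2 sham (Ccn1 from -0.040 to 0.40), for P2 sham against baseline (Ccn2 from -0.48 to 0.10 and Ccn3 from -0.13 to 0.22) and for P10 sham against baseline (Ccn2 from -0.13 to 0.11). The sign of the resection effect on Ccn2, Ccn4 and Ccn5, and of the window difference of every member, was kept in all settings. Counting depth limits only Ccn6 and, at 23 counts in its lowest library, Ccn5.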
